A study of Mus musculus with 36 samples.

Results

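The genes described here are 35 genes of stratified squamous epithelium, measured in the lungs of mice that received titanium dioxide nanoparticles. They were chosen by name: 7 keratins, 10 genes of the cornified envelope and the enzymes that crosslink it, 6 genes of desmosomes and cell adhesion, 6 regulators and 6 secreted or surface proteins. Of the 36799 gene names on the array, these 35 were matched through their RefSeq identifiers, and each is represented by its probe of highest mean intensity. For 11 of the 35 a second probe was present. The animals were female C57BL/6 mice, 5 to 7 weeks old when obtained, given 0, 18, 54 or 162 µg of Tube TiO2NPs in 40 µl as a single instillation into the trachea. Lungs were taken at day 1 or day 28. At day 1 there were 4 mice at 0 µg, 3 at 18 µg, 3 at 54 µg and 4 at 162 µg. At day 28 there were 3, 4, 4 and 4. The 29 mice gave 36 two-colour arrays, because 7 mice were hybridised once on slide 1 and again on slide 5. Each array held Cy5-labelled RNA of the lung beside a common Cy3 reference pooled from 11 mouse cell lines. RNA came from random sections of the frozen lung, per the labels, which give 5 per group. The sample identifiers give 3 or 4 mice per group, and 2 arrays were taken as 1 animal from a shared identifier alone. The 0 µg mice were the controls of each day. Replicate 1 at 162 µg, day 28, has conflicting labels, since its titles say day 1 and its time label day 28, and it was kept at day 28.

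Stratified squamous epithelium lines the skin, mouth and oesophagus, and in the mouse also the front part of the stomach. Its basal cells carry Krt5, Krt14 and Krt15 and are maintained by the transcription factor Trp63. As cells move up, they switch to differentiation keratins, of which Krt4 and Krt13 form the pair typical of internal linings such as the oesophagus, and then build a cornified envelope from loricrin, involucrin and small proline-rich proteins that transglutaminases crosslink. The lung is lined by other epithelia, but basal cells with Krt5, Krt15 and Trp63 are found in the large airways.

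The defining markers of lung were present on every array. The mean log2 Cy5 intensity over 9 alveolar type I and II genes was 14.81 to 15.95 on the 36 arrays, and that over 8 club and ciliated cell genes was 11.25 to 12.94. In the lung channel 48.6% to 62.2% of probes stood well above background, and 0 spots were saturated. A level of about 6 on the log2 Cy5 scale is near the background of these arrays, so differences from such a level are lower bounds. Levels are given on that scale, and each is compared only with the same probe on other arrays.

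Most squamous genes were higher on 8 of the 36 arrays than on the other 28, where some, among them Krt5 and Krt15, also varied. Krt13, the type I keratin of internal squamous linings, shows the split most plainly. It read 5.85 to 6.87 on 28 arrays, and no array read between 6.87 and 12.51. The 8 high arrays were 16.48 (day 1 control replicate 1, second array), 16.23 (day 1 control replicate 4), 15.93 (day 1, 54 µg replicate 2) and 16.00 (day 1, 162 µg replicate 3). The rest were from 54 µg at day 28, with 12.51 and 16.73 on the first and second array of replicate 1, 16.10 in replicate 2 and 15.21 in replicate 3. These 8 arrays came from 7 mice and lay on all 5 slides, with 1, 1, 3, 1 and 2 of them on slides 1 to 5. High Krt13 was therefore seen in 2 of 4 control mice at day 1, 1 of 3 at 54 µg, 1 of 4 at 162 µg and 3 of 4 at 54 µg on day 28. It was seen in 0 of 3 mice at 18 µg on day 1, and on day 28 in 0 of 3 control mice, 0 of 4 at 18 µg and 0 of 4 at 162 µg. Fewer cells of a type and less RNA per cell cannot be told apart in bulk RNA.

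**Figure D1:**
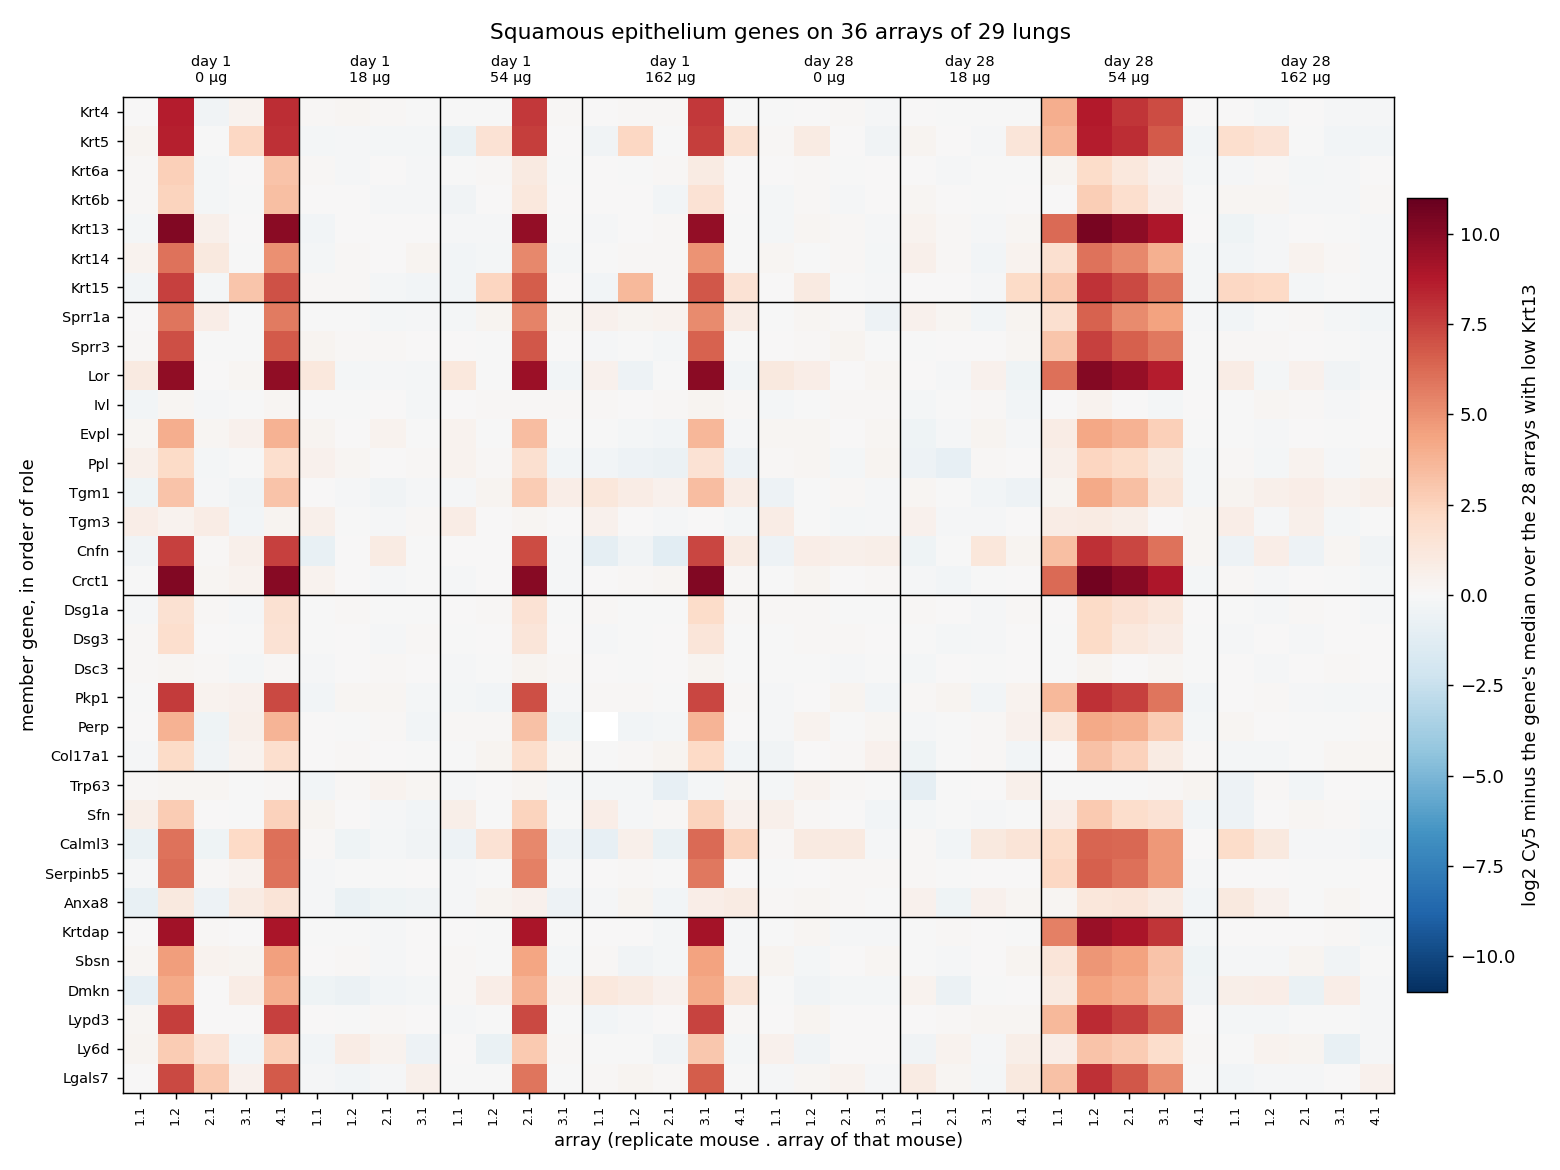
Heat map of the squamous genes (rows, in order of role) on 36 arrays (columns, by group, labelled replicate and array of that mouse). Colour is log2 Cy5 minus the gene's median over the 28 arrays with low Krt13, red for higher, and a white cell marks a spot left out. The 8 red columns hold the arrays with high Krt13, of which the first array of 54 µg replicate 1 at day 28 is paler. Krt5, Krt15 and Calml3 are also faintly red on other arrays.

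The members were set beside Krt13 array by array, as a description with no test, since the arrays were picked by a member of the list after its values were seen. Of the 35 members 18 read higher on each of the 8 arrays than on any of the other 28, and 29 did so on at least 7 of the 8. Over all 36799 gene names, with no filter on dim probes, 139 (0.378%) read higher on all 8. The share over all genes at 7 or more of the 8 was not counted, so the 29 cannot be set against it. The array that most often fell short was the first array of 54 µg replicate 1 at day 28, the palest of the 8. Between 29 and 35 members were well above background on the 8 arrays, and 19 to 26 on the others.

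Among the 7 keratins, 5 read higher on all 8 arrays than anywhere else. Krt4, the type II partner of Krt13, read 10.11 to 14.84 on the 8 arrays and 5.72 to 6.49 on the 28, where it was mostly not well above background: it passed that mark on 9 of 36 arrays. The basal pair differed from this. Krt5 read 10.61 to 15.52 on the 8 and 6.20 to 9.17 on the others, and Krt14 read 9.04 to 13.26 against 6.94 to 8.33. Krt15 read 9.48 to 14.58 on the 8, but reached 10.15 elsewhere, so its ranges overlapped. Krt6a and Krt6b, keratins of stressed and wound-edge epithelium, had smaller ranges: Krt6a was at 6.47 to 9.27 against 5.92 to 6.32, and Krt6b at 6.94 to 10.17 against 6.47 to 7.10. Near-identical paralogs such as Krt6a and Krt6b may share signal on these probes.

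Of the 10 genes of the cornified envelope and its crosslinking, 6 did not overlap. Loricrin (Lor), a main protein of the envelope, read 13.61 to 17.64 on the 8 arrays and 7.00 to 8.75 on the 28. Crct1, a small cysteine-rich protein encoded in the same gene cluster, read 12.34 to 16.73 against 5.86 to 6.53. Cornifelin (Cnfn) was at 12.11 to 16.82 against 7.60 to 10.06. The small proline-rich proteins Sprr1a and Sprr3 were at 9.09 to 13.80 against 6.77 to 8.11 and at 9.13 to 13.54 against 5.86 to 6.34. Envoplakin (Evpl) and periplakin (Ppl), which tie the envelope to keratin filaments, were well above background on all 36 arrays. Evpl read 11.95 to 15.43 on the 8 and 10.64 to 11.60 on the 28, and Ppl 11.15 to 12.98 and 9.74 to 11.19. Involucrin (Ivl), an early envelope protein, did not follow: its brighter probe read 6.01 to 6.64 on the 8 and 5.97 to 6.45 on the 28 and was well above background on 4 of 36 arrays, and its second probe on 0. The crosslinking enzyme Tgm1 read 7.66 to 11.46 against 6.75 to 8.60.

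The promoters of 4 members that were high on the same arrays are shown with that of Ivl, which was not, because they allow the start regions of the envelope and keratin genes to be compared. Each is the 250 bases before an annotated start, from RefSeq on GRCm38.p6, 5′ to 3′ on the strand of the gene. Capitals mark TGANTCA, the AP-1 motif, which reads the same on both strands, and TATAAA, the TATA box, searched on both strands. No 2 matches overlapped.
Krt13, chr11:100121567-100121816, minus strand: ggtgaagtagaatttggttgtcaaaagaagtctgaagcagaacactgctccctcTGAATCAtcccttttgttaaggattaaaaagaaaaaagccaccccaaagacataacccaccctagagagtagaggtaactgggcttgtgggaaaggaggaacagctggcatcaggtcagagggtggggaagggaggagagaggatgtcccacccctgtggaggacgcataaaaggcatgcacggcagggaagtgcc
Krtdap, chr7:30787655-30787904, plus strand: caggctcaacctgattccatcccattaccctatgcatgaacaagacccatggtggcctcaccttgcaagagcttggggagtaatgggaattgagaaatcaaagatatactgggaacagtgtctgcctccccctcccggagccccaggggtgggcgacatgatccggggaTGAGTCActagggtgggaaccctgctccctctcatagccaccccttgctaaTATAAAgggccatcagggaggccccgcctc
Lor, chr3:92083143-92083392, minus strand: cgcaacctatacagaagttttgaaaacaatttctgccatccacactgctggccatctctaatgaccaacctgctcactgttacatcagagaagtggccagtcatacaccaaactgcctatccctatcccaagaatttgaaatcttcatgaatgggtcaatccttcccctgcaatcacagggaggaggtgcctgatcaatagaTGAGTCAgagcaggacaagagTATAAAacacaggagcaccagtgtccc
Sprr1a, chr3:92485882-92486131, minus strand: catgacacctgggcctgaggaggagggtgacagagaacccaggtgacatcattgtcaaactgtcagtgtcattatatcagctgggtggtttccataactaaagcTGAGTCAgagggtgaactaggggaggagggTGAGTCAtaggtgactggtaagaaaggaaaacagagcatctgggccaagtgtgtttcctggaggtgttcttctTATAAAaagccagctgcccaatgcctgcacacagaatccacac
Ivl, chr3:92573736-92573985, minus strand: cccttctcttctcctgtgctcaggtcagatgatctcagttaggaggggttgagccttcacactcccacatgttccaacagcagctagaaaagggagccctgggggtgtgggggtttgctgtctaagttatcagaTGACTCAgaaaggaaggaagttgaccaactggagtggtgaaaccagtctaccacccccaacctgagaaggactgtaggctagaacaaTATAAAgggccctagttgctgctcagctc

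Promoter windows were found in the table for 20 of the 35 members, in 24 windows of 300 bases (250 before and 50 after a start). The AP-1 motif lay in at least 1 window of 8 members: Krt13, Sprr1a, Lor, Ivl, Serpinb5, Krtdap, Sbsn and Dmkn. By window, 11 of 24 held it, against 2565 of the 32851 windows of all genes (7.81%). In Lor it began at -48 and in Krtdap at -81 relative to the start, and Sprr1a had it at -146 and -116. TATAAA lay in windows of 7 members, 7 of 24 windows, against 13.6% of all windows, and began at -27 in Lor, -30 in Krtdap, -29 in Ivl and -43 in Sprr1a. The Krt13 window shown has AP-1 letters at -196 and no TATAAA, and its other window has AP-1 letters at -183 and -34. Krt5, Krt14, Sprr3, Cnfn, Lypd3 and Lgals7 also read higher on all 8 arrays with high Krt13, and their windows held no AP-1 motif. The Ivl promoter has both motifs while its probes stayed near background. Windows of one gene can overlap, as for Dmkn, and a match of letters is a description, not a site of binding.

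Among the 6 adhesion genes, plakophilin 1 (Pkp1), a desmosomal plaque protein of squamous cells, read 9.98 to 14.47 on the 8 arrays and 6.09 to 6.86 on the 28. Perp, a desmosomal membrane protein, was at 11.96 to 15.01 against 10.32 to 11.39. Col17a1, a hemidesmosome collagen that anchors basal cells, read 7.03 to 10.23 against 6.56 to 7.44. The desmosomal cadherins were dim. Dsg1a read 6.07 to 8.12 against 5.87 to 6.19, Dsg3 6.05 to 8.21 against 5.86 to 6.21, and Dsc3 6.09 to 6.43 against 5.90 to 6.25. Dsg1a and Dsg3 were well above background on 7 arrays each and Dsc3 on 1, so these 3, with Krt6a and Ivl, did not pass the filter and were not tested. The second probe of Dsc3 reached 7.47 on the 8 arrays and at most 6.27 on the others.

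Of the 6 regulators only Serpinb5, a serpin of basal epithelial cells, did not overlap, with 8.44 to 12.74 on the 8 arrays and 6.00 to 6.53 on the 28. Calml3, a calmodulin-like protein of epithelia, read 9.27 to 13.67 against 6.37 to 9.70. Stratifin (Sfn), a 14-3-3 protein of keratinocytes, was at 8.64 to 10.76 against 7.34 to 8.64. Anxa8, an annexin, was well above background on all 36 arrays, with 11.13 to 13.02 on the 28 and 12.19 to 13.36 on the 8.

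The probes disagreed most plainly for 2 members. The brighter probe of Trp63, the regulator of basal cells, read 10.71 to 11.20 on the 8 arrays, inside its range of 9.96 to 11.54 on the others. Its second probe read 6.68 to 9.88 on the 8 and 6.08 to 6.90 on the 28. Tgm3, a transglutaminase of the late envelope, read 8.98 to 9.89 on the 8 and 8.67 to 9.77 on the 28 by its brighter probe, and 7.70 to 12.01 against 6.26 to 6.81 by its second. The second probe of Tgm3 thus read higher on all 8 arrays. That of Trp63 did so except on the palest of them, where it read 6.68. The brighter probes did not follow Krt13. The second probe of Krt13 was also higher on all 8 arrays, at 9.83 to 14.35 against 6.35 to 6.78. Those of Calml3 and Dmkn gave ranges like the chosen probes, which overlap slightly: 7.43 to 10.93 against 6.13 to 7.82, and 12.16 to 15.59 against 10.27 to 12.50.

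**Figure D2:**
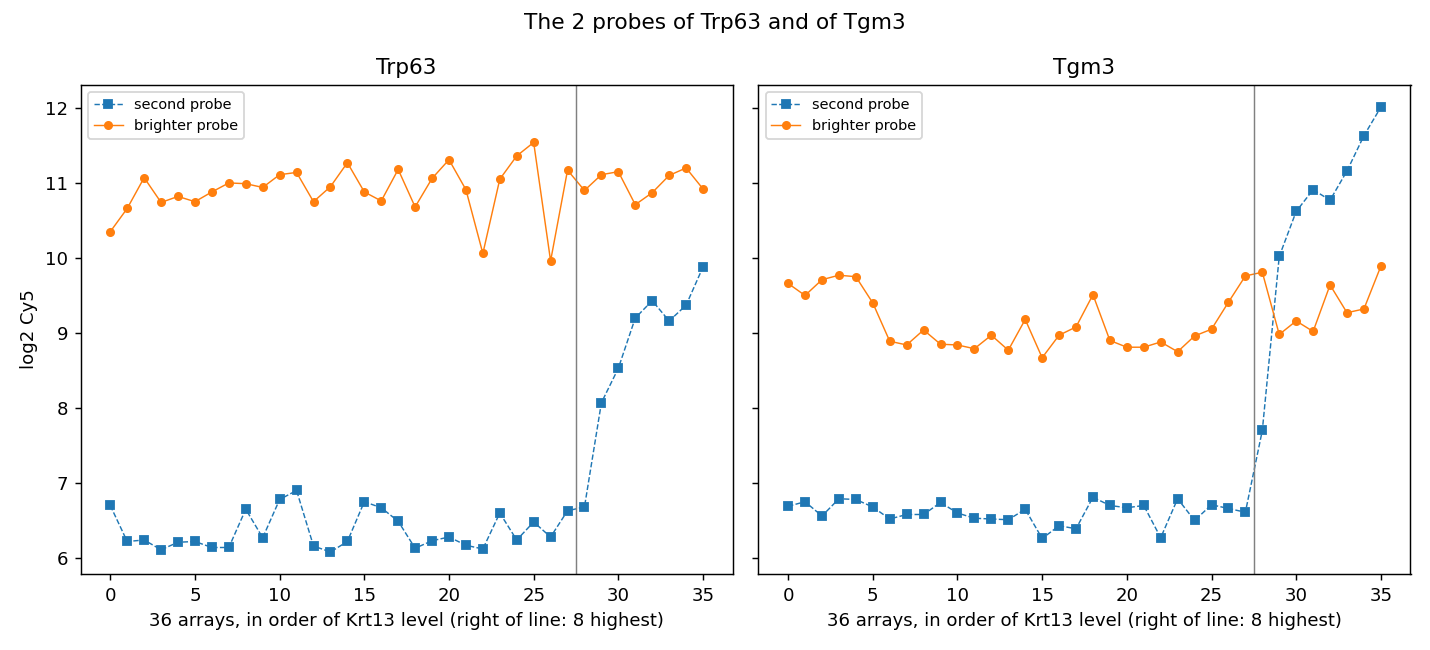
Log2 Cy5 of the 2 probes of Trp63 (left) and of Tgm3 (right) on the 36 arrays, ordered by the level of Krt13, with the 8 highest to the right of the line. Circles are the brighter probe and squares the second. On the right of the line the second probes reach 9.88 and 12.01, while the brighter probes stay within 8.98 to 11.20.

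Of the 6 secreted and surface proteins, 4 did not overlap. Krtdap, a secreted peptide of differentiating keratinocytes, read 11.60 to 15.57 on the 8 arrays and 5.83 to 6.30 on the 28, and was well above background on those 8 alone. Suprabasin (Sbsn) was at 11.96 to 15.45 against 10.13 to 11.00, and dermokine (Dmkn) at 12.34 to 15.79 against 10.49 to 12.77. Krtdap, Dmkn and Sbsn are neighbours on the chromosome. Lypd3, a surface protein of suprabasal cells, read 9.91 to 14.58 against 6.05 to 6.62, and Ly6d 12.45 to 14.89 against 10.94 to 13.21. Lgals7, galectin 7 of stratified epithelia, read 9.54 to 14.41 on the 8 and at most 9.20 elsewhere. That 9.20 was in day 1 control replicate 2, which also had the highest Krt14 (8.33) and Ly6d (13.21) of the 28 arrays, with Krt13 at 6.87 and Krt4 at 5.72.

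A smaller difference involved basal genes without Krt13. Leaving aside the 8 arrays, Krt15 read 6.28 to 6.77 on 20 arrays and 7.61 to 10.15 on 8 others, from 7 mice. These were day 1 control replicate 3 (9.70), 54 µg replicate 1 on its second array (9.00), 162 µg replicate 1 on its second array (10.15) and 162 µg replicate 4 (8.18). At day 28 they were control replicate 1 on its second array (7.61), 18 µg replicate 4 (8.70) and both arrays of 162 µg replicate 1 (8.92 and 8.81). Krt5 was 7.82 to 9.17 on these and 6.20 to 7.20 on the 20, and Calml3 7.82 to 9.70 and 6.37 to 8.32. Krt14 was 6.95 to 7.62 on these and 6.94 to 8.33 on the 20. The second probe of Trp63 was 6.24 to 6.90 on these and 6.08 to 6.63 on the 20, near background in both. Krt13 (5.85 to 6.54 and 6.00 to 6.87) and Krt4 (5.88 to 6.49 and 5.72 to 6.34) overlapped and stayed near background in both. This set was picked by Krt15 after its values were seen and spans control and treated mice of both days, so it is a description and was not compared by a test.

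Secretory genes of the large airways were high on the same arrays. Bpifa1, an antimicrobial protein of airway glands and surface epithelium, read 15.89 to 16.99 on the 8 arrays with raised Krt15 and low Krt13, and 7.17 to 14.21 on the 20. Bpifb1 read 14.97 to 16.99 against 8.30 to 15.22, and the mucin Muc5b 12.74 to 16.41 against 8.55 to 14.31. The mean over 11 airway gland and goblet cell genes was 11.94 to 13.34 against 9.48 to 11.98. Skeletal muscle genes were low on 7 of these 8 arrays, the exception being day 1 control replicate 3 with a list mean of 10.62. On the arrays with high Krt13 the same gland list spanned 9.65 to 12.81, so Bpifa1 was at 8.70 on one of them and at 17.32 on another. The part that airway tissue in a section has in the Krt15 level was not tested.

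**Figure D3:**
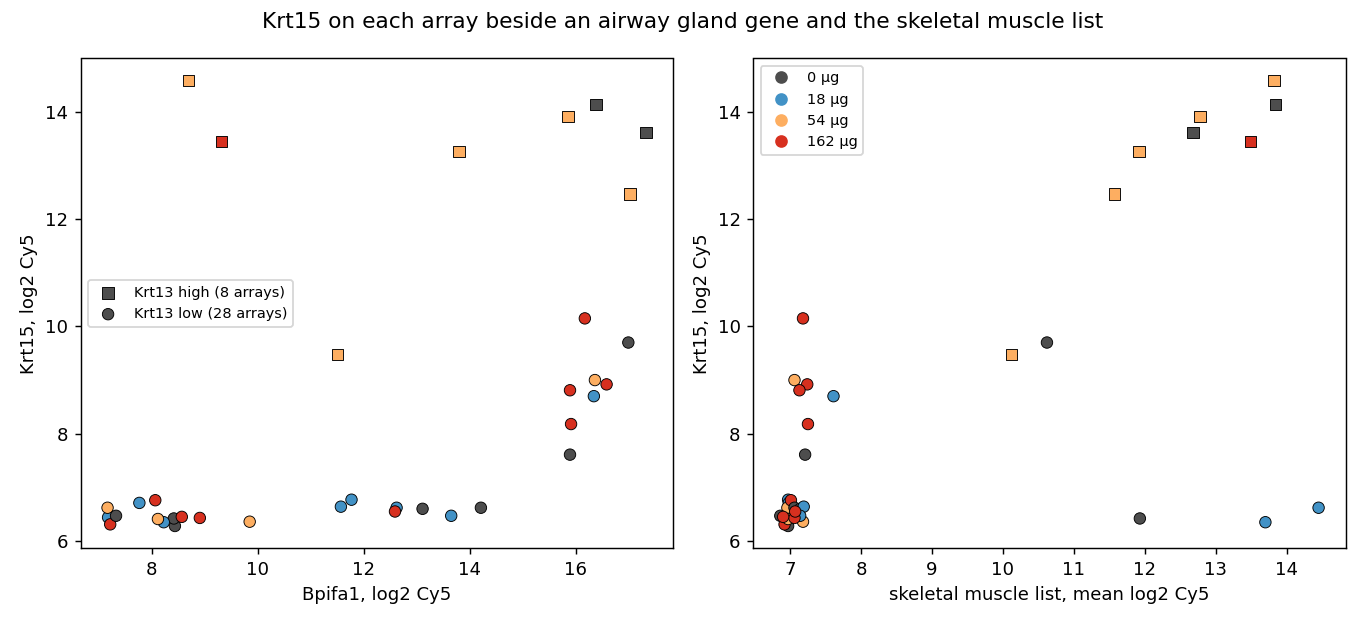
Log2 Cy5 of Krt15 on each of 36 arrays against that of the airway gene Bpifa1 (left) and against the mean log2 Cy5 of 20 skeletal muscle genes (right). Squares are the 8 arrays with high Krt13, circles the other 28, coloured by dose. Among the circles, Krt15 is above 6.77 only where Bpifa1 is at least 15.89, and the squares all have a muscle mean of at least 10.12.

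Skeletal muscle genes accompanied the full squamous pattern. Their mean level over 20 genes was 10.12 to 13.84 on the 8 arrays with high Krt13. It was at most 7.61 on 24 of the others and 10.62 to 14.45 on 4, which were day 1 control replicates 2 and 3, day 1 18 µg replicate 3 and day 28 18 µg replicate 1. Acta1, skeletal actin, read 14.15 to 17.67 on the 8 and Tnnc2, a fast-muscle troponin, 14.61 to 17.77. So high muscle genes without high Krt13 occurred on 4 arrays, and high Krt13 without high muscle genes on 0. Some members were raised on 2 of those 4, with Lgals7 at 9.20 in day 1 control replicate 2 and Krt15 at 9.70 in replicate 3. As given above, raised Krt15 also occurred on arrays with low muscle genes. Smooth muscle genes, 8 in the list, had a mean of 10.63 to 12.39 on the 8 and 10.45 to 11.67 on the 28, and 5 of the 8 arrays were above 11.67. The alveolar list was 14.81 to 15.29 on 7 of the 8 and 15.77 on the first array of 54 µg replicate 1 at day 28, against 15.07 to 15.95 on the 28. Their part in the squamous levels was not tested. Other lists overlapped closely between the 8 and the 28. The mean over 12 cartilage genes was 6.28 to 6.61 on the 8 and 6.20 to 6.64 on the 28, that over 10 thyroid and parathyroid genes 6.36 to 6.52 and 6.29 to 6.55, and that over 7 stomach genes 6.58 to 6.82 and 6.53 to 6.87. The mean over 10 thymus genes was 6.70 to 7.32 and 6.69 to 7.41, and that over 9 salivary genes 7.02 to 7.19 and 6.43 to 7.35. Cardiac muscle genes ranged widely in both sets, with means of 10.40 to 15.86 and 7.72 to 13.61, as did adipose genes (9.11 to 13.67 and 6.67 to 12.85). Which tissue the squamous RNA came from was not tested.

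A second list of 62 squamous genes, 60 of them on the array, gave the same arrays: 19 of the 60 read higher on all 8 than on any of the 28, and the list mean was 8.20 to 10.18 against 7.13 to 7.54. By the range over arrays the leading genes were the late cornified envelope genes Lce3b (12.28 to 16.57 on the 8, 6.04 to 7.04 on the 28), Lce3a (11.81 to 16.34 and 5.85 to 6.29) and Lce3c (12.08 to 16.27 and 6.02 to 6.94). The protease Asprv1, Fam25c and Cysrt1 followed, with 11.73 to 16.17, 11.08 to 15.25 and 9.94 to 14.41 on the 8 arrays and at most 8.49, 8.27 and 6.73 on the others. Of 15 genes of epidermal terminal differentiation on the array 7 did not overlap, led by Lce1c (9.21 to 13.45 and 6.23 to 6.80) and Lce1a1 (8.64 to 13.17 and 6.10 to 6.68). The share over all gene names was 0.378%. By the brightest probe of each gene, the only one looked at here, the epidermal keratins did not follow. Another probe could differ, as it did for Trp63 and Tgm3. Krt10 read 7.59 to 8.10 and 6.71 to 8.21, and Krt2 6.55 to 7.54 and 6.68 to 7.70. Krt1, Krt77 and Flg2 read at most 6.75, 6.37 and 6.31 on any array. The list mean was 7.44 to 9.69 on the 8 and 6.54 to 6.69 on the 28.

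The 12 genes outside the list whose log2(Cy5/Cy3) profile over the 36 arrays was most like the members' mean profile were Pitx1, Teddm3, Psapl1, Bglap3, Lce1c, Klk9, Vsig8, Cstdc5, Bglap2, Cysrt1, Tmprss11a and Lce1b. Likeness was the root mean square difference of standardised profiles, from 0.10 for Pitx1 to 0.14 for Lce1b. Pitx1, a homeobox transcription factor, read 8.30 to 12.95 on the 8 arrays and 5.89 to 6.52 on the 28, and Bglap3, an osteocalcin-related gene, 8.25 to 12.87 and 6.54 to 7.07. By the same measure the members ranged from 0.10 for Serpinb5 to 1.40 for Trp63, with Krt15 at 0.43, Anxa8 at 0.71 and Tgm3 at 0.90. Bglap2 and Bglap3 are near-identical copies, so their probes may share signal.

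The 7 mice with 2 arrays show how far the squamous genes can differ within an animal. In day 1 control replicate 1 Krt13 read 6.05 on the first array and 16.48 on the second, and Lor 8.56 and 17.33. The log2(Cy5/Cy3) of the 30 tested members differed between its arrays by a median of 4.50, from -0.18 to 8.43, and 28 of 30 differed by more than 1. Over all genes the median absolute difference between the same arrays was 0.241, and 6.51% differed by more than 1. The muscle list mean was 6.97 on the first of these arrays and 13.84 on the second. In 54 µg replicate 1 at day 28 Krt13 read 12.51 and 16.73, and the members' median difference was 2.48, against 0.227 for all genes. There 27 of 30 members differed by more than 1, against 5.57% of genes. Muscle read 10.12 and 13.82.

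In the other 5 mice the members' median difference was -0.01 to 0.25. Their median absolute difference was 0.16 to 0.25, and that over all genes 0.153 to 0.194. The basal genes still differed, most in 2 of these mice. In 162 µg replicate 1 at day 1, Krt15 read 6.31 and 10.15 and Krt5 6.50 and 9.17, with the gland list mean at 10.32 and 12.36. In 54 µg replicate 1 at day 1, Krt15 read 6.36 and 9.00 and Calml3 6.72 and 8.88, with the gland list at 10.77 and 12.33. Smaller differences were seen in day 28 control replicate 1. There Krt15 read 6.62 and 7.61 and Krt5 7.09 and 7.82, with the gland list at 11.40 and 12.03. The first arrays were on slide 1 and the second on slide 5, so the slide and the array cannot be told apart here. The labels do not say whether the second array used the same RNA extract or another section.

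**Figure D4:**
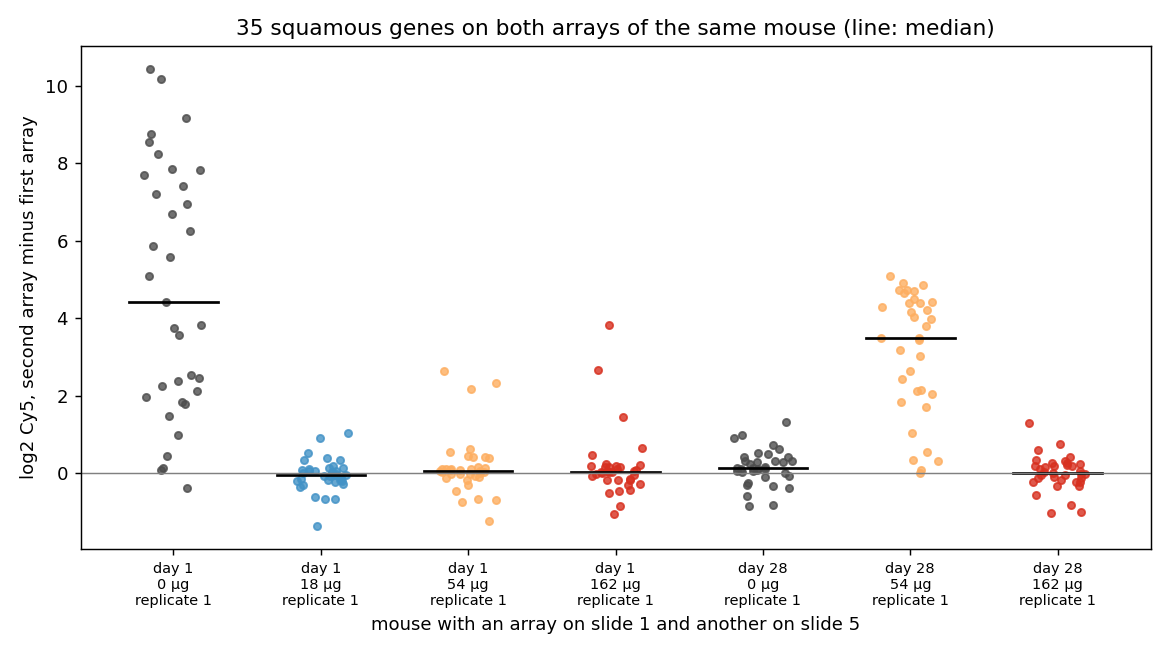
Difference in log2 Cy5 between the second and the first array of the same mouse for the 35 squamous genes (points) in 7 mice, with the median as a line. The genes of day 1 control replicate 1 and of 54 µg replicate 1 at day 28 spread upward, to 10.44 and 5.10 log2 units. The medians of the other 5 mice lie near 0. Krt5, Krt15 and Calml3 are most apart in 2 of these mice, and Lor is lower by up to 1.37.

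The study's own comparisons ask how each dose changed the lung against the control mice of the same day. In limma's test with Benjamini-Hochberg adjustment over 23256 genes, 0 of the 30 members tested passed an adjusted p of 0.05 in any of the 7 comparisons. At an unadjusted p under 0.05 there were 0 members in 5 of them, 4 at 18 µg on day 1 (4.08% of all genes) and 23 at 54 µg on day 28 (6.15% of all genes). The share of all genes with such a p was 13% at 162 µg and 7.6% at 54 µg on day 1. It was 4.79% at 162 µg and 4.33% at 18 µg on day 28, and 5% between the controls. To be tested, a gene had to be clearly over background in the lung channel on all arrays of 3 or more mice in some group. The 23 at 54 µg on day 28 include 7 members that passed this filter only through that group and so had to differ. The share of all genes called at the adjusted p was 1.69% at 162 µg, 0.0516% at 54 µg and 0% at 18 µg on day 1. On day 28 it was 0.628% at 162 µg, 0% at 54 µg and 0% at 18 µg, and between the control groups of the 2 days it was 0%. The difference between day 28 and day 1 in the change at each dose was tested too, and 0 members passed. Differences below are in log2(Cy5/Cy3), the mean of the dosed mice minus that of the controls. Comparisons of one day share their control mice, and a group mean lies between the mice with high and with low Krt13 where a group holds both.

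At 54 µg on day 28 the members had their largest differences, with 30 of the 30 tested above 0 and a median of 2.61, against -0.02 over all genes. Of the 30, 7 passed the filter only through this group (Krt4, Krt13, Sprr3, Crct1, Serpinb5, Krtdap and Lypd3), so they had to differ. The median was 2.31 over all 35 members with no filter, and 1.99 over the 23 that passed in more than 1 group. Krt13 was 5.31, 6.31, 6.02 and -1.87 in the 4 dosed mice and -1.79, -1.54 and -1.89 in the 3 controls. The first 3 dosed mice lay far above the controls, and the fourth lay among them. The difference of the means was 5.68 (SE 2.13, adjusted p = 0.749, limma). Krtdap was 5.78, 6.77, 6.13 and -0.22 against 0.07, -0.03 and -0.18, a difference of 4.66 (SE 1.70, adjusted p = 0.749, limma). On 4 of 5 dosed arrays and 0 control arrays Krtdap was well above background, and its mean Cy5 at 54 µg was at least 64.9-fold higher than in controls. By the same bound, Krt4 was at least 40.1-fold and Sprr3 at least 19.2-fold higher, with an adjusted p of 0.749 for both by limma. Krt13, Krtdap, Krt4 and Sprr3 are all among the 7 that had to differ, so their differences and folds are a description. In 2 members, Lypd3 and Ly6d, the fourth dosed mouse also read above the controls, but by little: -0.19 against a highest control of -0.20 for Lypd3, and 2.33 against 2.30 for Ly6d.

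These values rest on the 3 mice with high Krt13. Without the 8 high arrays, a choice made after seeing the data that leaves replicate 4 as the only 54 µg mouse, the Krt13 difference was -0.14 and the members' median -0.15. Krt13 itself defined those arrays, so the loss of its difference was fixed in advance and is no test. Within the 4 slides that hold both groups, the Krt13 difference ran from 0.02 to 8.25. The same 3 mice were the 54 µg mice with skeletal muscle genes, as given above.

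At day 1 the controls held high values in 2 of 4 mice, and 4 of 4 had an array with high skeletal muscle genes, against 1 mouse in each dosed group. The median of 19 skeletal muscle genes tested was -2.36, -2.35 and -2.44 at 18, 54 and 162 µg, and their part in the squamous values was not tested. Krt13 was 2.27, -1.58, -1.85 and 6.53 in the 4 controls, of which the first is the mean of a low and a high array, and -2.04, -1.83 and -1.95 in the 3 mice at 18 µg. The highest of the 18 µg mice, at -1.83, lay just above the lowest control. The difference was -3.28 (SE 2.13, adjusted p = 0.912, limma), and the members' median was -1.84 against 0.00 over all genes. The 4 members with an unadjusted p under 0.05, against 4.08% of all genes, were Krt5 (-1.95), Krt6b (-1.19), Anxa8 (-0.90) and Lgals7 (-2.83). At 54 µg Krt13 was -1.86, 6.16 and -2.04, and the members' median was -0.45. At 162 µg it was -1.99, -2.01, 6.14 and -2.05, and the members' median was -0.67. Both of these groups overlapped the controls. Their direction turned on 1 mouse: without control replicate 4 the median was 0.35 at 54 µg and 0.22 at 162 µg, and it was 0.20 and 0.31 without 54 µg replicate 1 or 3.

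Between the control groups, Krt13 was -1.74 ± 0.18 (SD, n = 3) at day 28 and 1.34 ± 3.94 (SD, n = 4) at day 1. The members' median difference was -1.76 against 0.02 over all genes, with 30 of 30 below 0. It was 0.02 without the 8 arrays, which were picked by a member and so give no test. The median of the skeletal muscle genes was -3.68 in the same comparison. At day 28 the members' median was -0.09 at 162 µg and 0.01 at 18 µg, with Krt13 at -2.02 ± 0.26 (SD, n = 4) and -1.77 ± 0.24 (SD, n = 4). There was no array with high Krt13 in these groups or their controls, and the members ranged from -0.54 to 0.60 and from -0.48 to 0.39.

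The highest of these, Tgm1 at 162 µg, is set out because its groups stood apart, and it was singled out after its values were seen. Tgm1 encodes transglutaminase 1, which crosslinks the cornified envelope and is also expressed by other cells. At day 28 it was 1.23, 1.64, 1.11 and 1.28 in the 4 mice at 162 µg and 0.72, 0.69 and 0.75 in the 3 controls. The groups did not overlap, and the difference was 0.60 (SE 0.74, adjusted p = 1, limma), with an SE that is shared by all groups and so holds the spread of the mice with high Krt13. It was 0.40 to 0.63 within the 4 slides that hold both groups, and the adjusted p was 0.0702 in a limma fit to these groups alone. At day 1 Tgm1 was 1.98, 1.35, 4.01 and 1.78 at 162 µg and 2.34, 0.76, 0.47 and 3.91 in controls, a difference of 0.41 (SE 0.68, adjusted p = 0.861, limma). The value of 4.01 and the controls at 2.34 and 3.91 are mice with a high Krt13 array. Without the 8 arrays the day 1 difference was 1.05 (adjusted p = 0.0099, limma), an alternative chosen after seeing the data. Without the 12 muscle arrays it was 0.97 (adjusted p = 0.102, limma), in a fit with 1 control mouse whose spread is taken from the other groups.

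**Figure D5:**
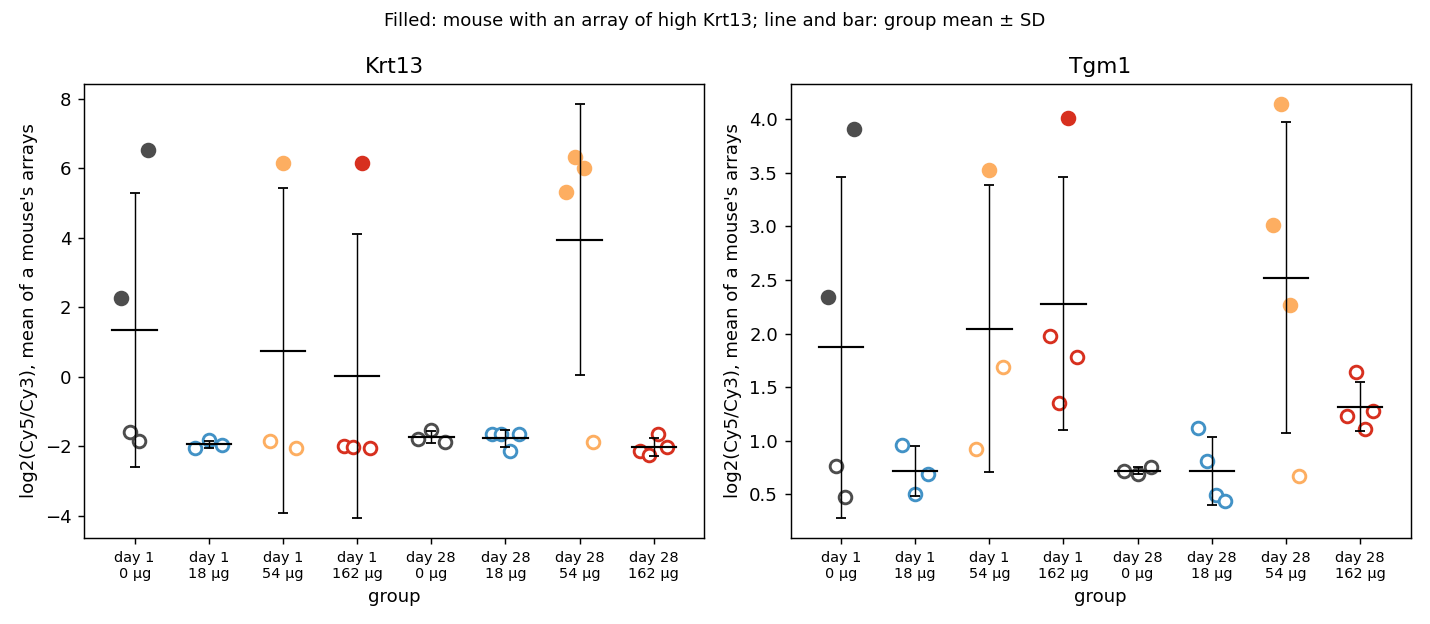
Log2(Cy5/Cy3) of Krt13 (left) and Tgm1 (right) for each of 29 mice by group, as the mean of a mouse's arrays, with lines for group means and bars for SD. Filled points are mice with an array of high Krt13. Krt13 lies near -2 in the open points of all groups, and Tgm1 at 162 µg lies between 1.11 and 1.98 in the open points, above the open control points at 0.47 to 0.76.

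Dmkn, the secreted dermokine, was 4.21, 3.56, 6.63 and 4.61 at 162 µg on day 1 and 4.43, 3.39, 3.95 and 6.75 in controls, a difference of 0.12 (SE 0.73, adjusted p = 0.967, limma). Without the muscle arrays it was 1.79 (adjusted p = 0.028, limma), against a single control array, and without the 8 high arrays it was 0.90 (adjusted p = 0.193, limma). At day 28 its difference at 162 µg was 0.37 (SE 0.79, adjusted p = 1, limma). The second squamous list gave the same outcome as the members: of its 44 genes tested, 0 passed limma's adjusted p in any comparison, and its median was 1.19 at 54 µg on day 28 and between -0.79 and 0.03 in the other 6 comparisons.

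The reference channel, in normalized values, was not independent of these signals. Its levels, like those of Cy5, were computed back from the normalized ratio and intensity and are not scanner readings. Cy3 holds the reference RNA and should not vary with the lung, yet for 4 members it read higher on all 8 arrays with high Krt13 than on any of the 28. For Krt5 it was 7.93 to 11.76 against 6.28 to 7.57 in log2 Cy3, for Lor 7.40 to 10.18 against 6.12 to 7.10, for Krtdap 6.59 to 9.01 against 5.91 to 6.29, and for Sprr3 6.37 to 7.99 against 5.94 to 6.29. For Krt13 Cy3 was 8.43 to 10.19 against 7.86 to 8.60, and for Cnfn 7.44 to 10.94 against 6.74 to 7.52. These ranges overlapped only through the palest of the 8 arrays. Krt4, Krt14, Krt15, Evpl, Crct1, Calml3, Serpinb5, Dmkn, Lypd3, Ly6d and Lgals7 behaved alike. The ratio differences of all these genes, Krt13 included, are therefore smaller than their Cy5 differences. For Sprr1a Cy3 did not rise, at 10.15 to 10.41 against 10.04 to 10.48. For Perp it leaned the other way, at 10.65 to 11.05 against 10.88 to 11.15. The share of all genes with raised Cy3 was not counted. For Anxa8, Cy3 was 11.47 to 11.60 on the 8 and 11.44 to 11.70 on the 28. What raised Cy3 on these arrays was not tested.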

How the data were processed

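The authors measured lung RNA against a common reference on two-colour Agilent arrays. Per the file headers, spots were read with Agilent Feature Extraction 11.0.1.1, and the deposited intensity columns give foreground and background in both dyes. The deposited LogRatio column is a log10 ratio of Cy5 over Cy3, and the authors' value table holds log2 ratios, whose normalization is not given in the sources used here. Here, with R 4.3.3, limma 3.58.1 and version 1.17.8 of the data.table package, median intensities were corrected by normexp with an offset of 50 and normalized by loess within arrays, with control spots given no weight and outlier spots left out. Mean intensities were put on one scale between arrays (Aquantile), and Cy5 and Cy3 levels were computed back from them and the normalized ratios. Arrays of one mouse were averaged. The deposited files name genes by RefSeq accession, which a GRCm38.p6 table turned into symbols (28026 of 55681 probes). Genes clearly over background in the lung channel, on all arrays of 3 or more mice in some group, were tested, 23256 in all, in one limma model of 29 mice with a mean per group. Its steps were checked on simulated data. A "well above background" probe that was dim on all arrays of a group gives a lower bound, taken against the lowest signal well above background on each array or the probe's own signal, whichever is higher. The number of arrays, not a read depth, limits precision. The members and lists were chosen with earlier results of these data known, so their counts are a description. The values of 1 member on its own are not reported here; it is kept in the counts over the 35. From each other list the genes with the largest range over arrays were named, up to 6, and the 12 genes most like the members in profile. The epidermal keratins and Flg2 were named besides, as genes whose brightest probe did not follow. Alternatives were the scanner's own log ratios, median centring, the value table, other filters and probes, the slide or mouse as a block, other samples in the fit, and leaving out mice or arrays.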

Additional observations from a re-analysis of the deposited data

Results flagged for a closer look

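Within groups of 4 mice, 35 of 150 combinations of member and group had a mouse standing apart, by its gap to the nearest mouse divided by the whole range of the group's log2(Cy5/Cy3). Chance gives about 1 in 20 such groups, and members that share arrays are not independent.

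At 162 µg on day 1, replicate 3, the mouse with a high Krt13 array, stood above the others in 18 members. The share of the range was 0.993 for Krt13, 0.976 for Krt4, 0.856 for Krt6b, 0.983 for Krt14, 0.908 for Sprr1a, 0.972 for Sprr3, 0.927 for Lor, 0.923 for Evpl and 0.939 for Ppl. It was 0.98 for Crct1, 0.971 for Pkp1, 0.912 for Perp, 0.971 for Serpinb5, 0.952 for Krtdap, 0.986 for Sbsn, 0.926 for Lypd3, 0.92 for Ly6d and 0.91 for Lgals7. At 54 µg on day 28, replicate 4 stood below its 3 companions in Krt13 (0.878), Lor (0.848), Crct1 (0.878) and Krtdap (0.86), and replicate 2 above them in Tgm3 (0.87).

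At 162 µg on day 28, replicate 1, the mouse with conflicting labels, was above the others in Krt5 (0.837), Krt15 (0.918) and Calml3 (0.849) and below them in Sfn (0.975), and replicate 2 was below in Krt6b (0.872). At 18 µg on day 28, replicate 4 was above in Krt15 (0.893) and Tgm3 (0.869). In that group replicate 3 was below in Krt13 (0.958) and Krt14 (0.856), replicate 1 in Sprr3 (0.884) and Krtdap (0.846), and replicate 2 in Anxa8 (0.863).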

How the results depend on the processing

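Under 42 alternative settings, of which 29 left out 1 mouse each, the count of members past limma's adjusted p stayed at 0 in each comparison except 162 µg at day 1. There it was 1 without the 12 arrays with high muscle genes (Dmkn) and 1 without the 8 arrays with high Krt13 (Tgm1), the latter chosen after seeing the data. Without the muscle arrays Krt13 turned to 0.02 at 18 µg on day 1, -0.14 at 54 µg on day 28 and 0.21 between the controls, and Krt5 to -0.42 at 54 µg on day 28. Without the high Krt13 arrays, Krt13 was -0.14 at 54 µg on day 28 and 0.06 between the controls, and Krt5 -0.42. For Krt13 this was fixed in advance, since it defined those arrays. At 162 µg on day 1, Dmkn turned to -0.02 with the mouse of conflicting labels placed at day 1, and leaving out single mice moved it from -0.50 (162 µg replicate 3) to 0.83 (control replicate 4), with -0.29 and -0.10 without control replicates 2 and 3. Tgm1 ran from -0.16 (without 162 µg replicate 3) to 1.09 (without control replicate 4), with -0.05 without control replicate 3. Krt13 ran from -3.36 (without 162 µg replicate 3) to 0.41 (without control replicate 4). Settings that leave out mice or arrays have fewer samples, and the cause was not tested otherwise. Genes called at 162 µg on day 1 numbered 394. They were 967 with slide as a block, 834 with mouse as a random block, 602 without the high Krt13 arrays, 236 with the mouse of conflicting labels at day 1, 169 with median centring and 38 with only the groups compared. Leaving out single mice gave 200 (162 µg replicate 1), 223 (replicate 4), 234 (replicate 2), 819 (replicate 3) and, for the controls, 249 (replicate 1) to 371 (replicate 3). At 162 µg on day 28 they were 146, with 234 without the muscle arrays, 230 with only the groups compared, 88 with the scanner's log ratio and 65 (without control replicate 2) to 128 on leaving out single mice. At 54 µg on day 1 they were 12, with 21 under median centring and 0 with only the groups compared. At 54 µg on day 28 they were 0, and 21 without either set of arrays, which leaves 1 mouse at 54 µg whose spread is taken from the other groups. Without the muscle arrays there were also 5 at 18 µg on day 1 and 12 between the controls. No paired analysis was possible because replicate numbers only name the mice. Members dim on most arrays, namely Krt6a, Ivl, Dsg1a, Dsg3 and Dsc3, were limited by signal over background.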
